A study of Mus musculus with 20 samples.

Results

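The 20 liver RNA sequencing libraries of male Lepr db/db mice were sorted by a single measured ratio into 3 classes, and gene expression was then compared between the classes. In these mice the receptor for leptin, the hormone that curbs appetite, does not signal normally, and they grow obese. The ratio was the count of Rps18, a gene for a protein of the small ribosomal subunit, divided by the summed counts of Rps18 and its near-identical copies Rps18-ps5 and Rps18-ps6. Class A held the libraries with a share over 0.9, class B those from 0.3 to 0.7 and class C those under 0.1. Of the 20 libraries, 4 fell in class A, 8 in class B and 8 in class C, and none fell between classes. Genotype was not measured: the labels give none, and gene tables hold no variants, so the classes are named here by the ratio alone.

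The libraries came from 4 treatment groups of 5 libraries each. All mice received AAV8, a virus that carries genes to the liver, by tail vein at 5 weeks of age. The Vec groups received a non-targeting shRNA and the shRNA groups an shRNA cassette against Pparg, the fat-storing nuclear receptor PPARγ. Each was followed by 4 weeks of oral vehicle (Vec, shRNA) or of benzbromarone, a uric acid lowering drug, at 25 mg/kg once daily (Vec+BBR, shRNA+BBR). Pparg ranged over 16.4 to 35.9 normalized CPM (a gene's count scaled to library size) in Vec, 28.0 to 38.3 in Vec+BBR, 3.24 to 7.31 in shRNA and 7.19 to 21.8 in shRNA+BBR. Total counts ran from 17432904 to 25024099 per library. The liver genes Alb, Apoa1 and Ttr were abundant in every class, with Alb never below 75123 CPM.

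Rps18 lies at the edge of the mouse major histocompatibility complex, H2, on chromosome 17. This region holds the class I genes, whose products show peptides from inside the cell to CD8 T cells, and the class II genes, whose products show engulfed peptides to CD4 T cells. Between them lie the class III genes, which include complement components. H2 is among the most variable regions between inbred strains, and the set of alleles carried together on 1 chromosome is called a haplotype. In bulk liver, fewer cells of a type and less RNA per cell cannot be told apart.

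The 3 genes that set the classes differ at few bases, and their sequences are shown to make the rule visible. In the mm10 build Rps18 spans chr17:33951999-33956001 on the minus strand, Rps18-ps6 chr13:97760072-97760632 on the minus strand and Rps18-ps5 chr13:28257528-28258134 on the plus strand. Their coding sequences all have 459 bases, and Rps18 was 99.13% identical to Rps18-ps6 and 99.35% identical to Rps18-ps5. Counted from the A of the start codon, with the base of Rps18 first, Rps18-ps6 carries T186C, A337C, G371A and G431A, and Rps18-ps5 carries T11A, A171C and A337C. A337C was thus the 1 position of 6 at which Rps18 differs from both copies. Bases 297 to 386 of the coding sequences, taken from the reference transcripts (GENCODE M21) and counted in the same way, are printed below. Every position that differs among the 3 genes is in capitals.
Rps18: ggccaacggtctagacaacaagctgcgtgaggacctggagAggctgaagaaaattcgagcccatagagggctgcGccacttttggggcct
Rps18-ps6: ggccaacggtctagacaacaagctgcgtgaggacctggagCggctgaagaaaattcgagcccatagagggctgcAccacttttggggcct
Rps18-ps5: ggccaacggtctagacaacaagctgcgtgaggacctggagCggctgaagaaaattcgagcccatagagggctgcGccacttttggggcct
The bases carried by the sequenced mice were not examined.

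As a description of the rule, Rps18 took 99.49% of the 3 genes' counts in Vec replicate 2, 99.45% in Vec+BBR replicate 4, 99.58% in Vec+BBR replicate 5 and 99.55% in shRNA replicate 1, the class A libraries. The share lay between 49.9% and 53.3% in class B (median 51.3%) and between 2.04% and 3.67% in class C (median 2.59%). Rps18-ps6 took most of the rest, with at most 20.9 counts in class A, a median of 1748 in class B and a median of 3761 in class C. The members nearest the cutoffs therefore lay far inside them. The summed level of the 3 genes overlapped between classes, at 162 to 241 CPM in class A, 146 to 204 in class B and 158 to 248 in class C. In all 20 libraries the 3 estimated counts added up to a whole number within 0.02.

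**Figure D1:**
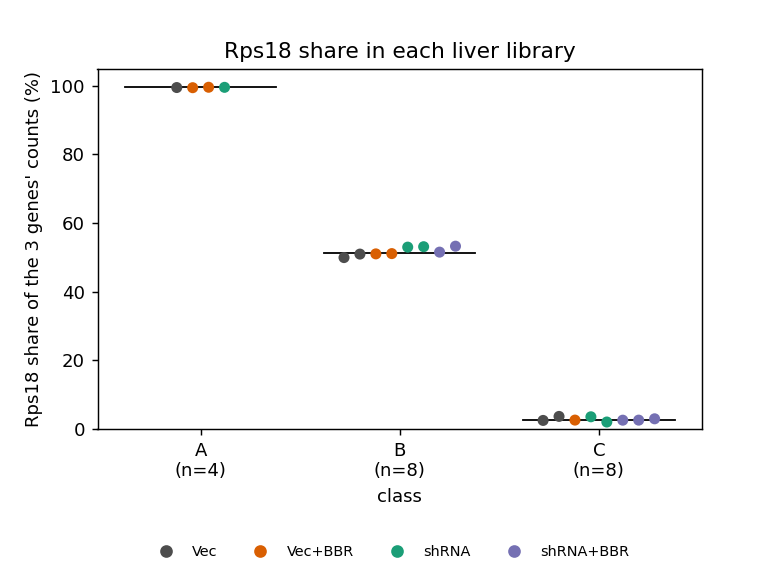
Share of Rps18 in the summed counts of Rps18, Rps18-ps5 and Rps18-ps6, in percent, for each library by class, coloured by treatment group, with the class median as a line. The 4 class A libraries sit near 99.5%, class B between 49.9% and 53.3%, and class C between 2.04% and 3.67%.

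The classes were spread over the treatment groups. Vec held 1 library of class A, 2 of class B and 2 of class C, as did shRNA. Vec+BBR held 2, 2 and 1, and shRNA+BBR held 0, 2 and 3. Class and treatment group were not associated detectably (two-sided Freeman-Halton exact test, p = 0.918), with 5 libraries per group. Treatment group was kept in the model for every class comparison.

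Between class A and class C, 6 of 12339 tested genes (0.0486%) passed an adjusted p of 0.05 (edgeR quasi-likelihood test with Benjamini-Hochberg adjustment; the 3 genes that set the classes were left out). H2-K1 and Apom were higher in class A. H2-Ea, Gm11127, H2-DMb2 and Cd8a were lower. All but Cd8a lie on chromosome 17, within 2.5 Mb of Rps18. An unadjusted p under 0.05 was reached by 480 genes (3.89% of those tested), 113 higher and 367 lower in class A. That share is below the 0.05 reached on average where no gene differs, and the split by direction was not tested.

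H2-K1, a classical class I heavy chain on most nucleated cells (chr17:33996017-34000347, minus strand), was the strongest increase. It stood at 1167 CPM in Vec replicate 2, 1043 in Vec+BBR replicate 4, 1299 in Vec+BBR replicate 5 and 1142 in shRNA replicate 1. In class B it ran from 553 to 901 CPM (median 690), and in class C from 74.4 to 220 CPM (median 106). The 3 classes did not overlap. The mean was 1163 ± 106 CPM (SD, n = 4) in class A and 122 ± 49.9 CPM (SD, n = 8) in class C, a 9.52-fold ratio of these unadjusted means. The log2 fold change fitted with treatment group in the model was 3.48 (SE 0.20, edgeR adjusted p = 6e-09).

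H2-D1, the other classical class I heavy chain measured, did not pass the test. Its level was 467 to 675 CPM in class A and 394 to 858 CPM in class C, and the ranges overlapped (log2 fold change 0.19, adjusted p = 1.0). Within a library, the ratio of H2-K1 to H2-D1 counts ranged from 1.92 to 2.501 in class A. It lay between 1.20 and 1.63 in class B and between 0.175 and 0.257 in class C. B2m, the light chain that pairs with both, was 1504 to 2140 CPM in class A and 1801 to 3484 CPM in class C (log2 fold change -0.09, adjusted p = 1.0).

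H2-Ea, the alpha chain of the class II E molecule (chr17:34341959-34344645, minus strand), was almost unread in class A. GENCODE lists it as a polymorphic pseudogene, a gene intact in some individuals or strains and not in others. It had 0 counts in Vec replicate 2 and 1 count in each of the other class A libraries, against 5.13 to 21.5 CPM in class B (median 16.9) and 20.9 to 72.5 CPM in class C (median 38.9). Over the whole class, 3 counts in class A compared with 7033 in class C, a depth-scaled ratio of 1116 with an exact 95% interval of 382 to 5413 that covers counting error only (edgeR adjusted p = 4.66e-08). Every class C library was above every class A library, and class B overlapped class C at its upper end.

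H2-Eb1, the beta chain that pairs with the H2-Ea product, did not pass the test (8.36 to 33.2 CPM in class A, 10.7 to 53.6 CPM in class C, log2 fold change -0.63, adjusted p = 1.0). The ratio of H2-Ea to H2-Eb1 counts was at most 0.00529 in class A. It ran from 0.563 to 0.774 in class B and from 1.23 to 1.96 in class C, so that the classes were apart on this ratio. H2-Aa and H2-Ab1, the chains of the class II A molecule, overlapped between classes, with log2 fold changes of -0.05 and -0.10.

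H2-DMb2, a beta chain of the H2-DM molecule that helps load peptides onto class II (chr17:34143307-34151555, plus strand), was at 0.257 CPM in Vec replicate 2, 0.223 in Vec+BBR replicate 4, 0.282 in Vec+BBR replicate 5 and 0.228 in shRNA replicate 1. It was 0.458 to 1.52 CPM in class B and 1.45 to 4.35 CPM in class C. The difference from class C was a log2 fold change of -3.26 (SE 0.34, edgeR adjusted p = 2.59e-05). The partner copy H2-DMb1 gave a log2 fold change of -0.69 (adjusted p = 0.788). H2-DMb2 held 7.06% to 14.3% of the summed counts of both copies in class A, 19.8% to 35.8% in class B and 30.5% to 52.0% in class C.

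**Figure D2:**
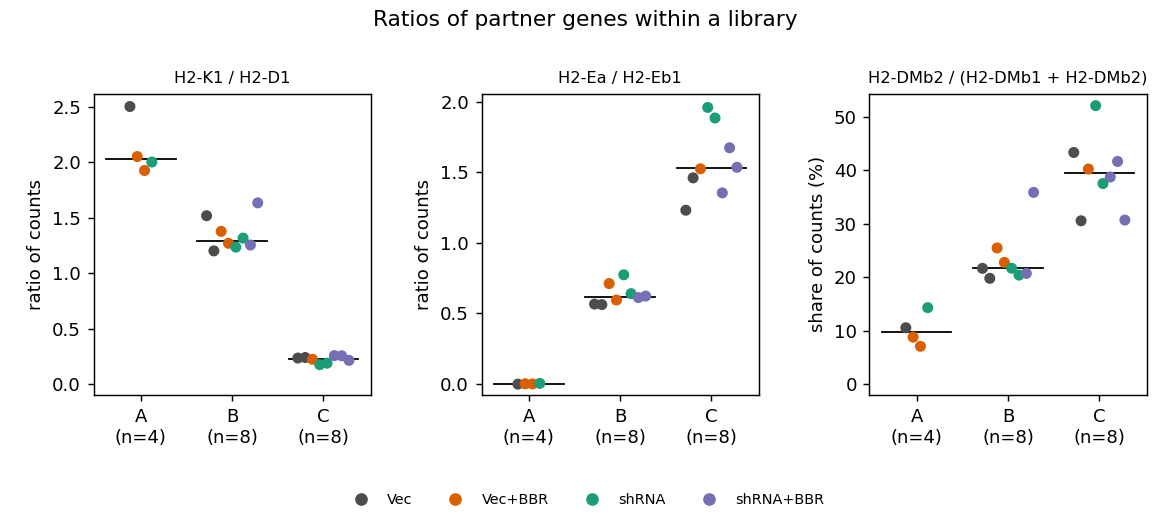
Ratios of counts within each library for H2-K1 over H2-D1, H2-Ea over H2-Eb1, and the percent of H2-DMb2 in the sum of H2-DMb1 and H2-DMb2, by class, with medians as lines and colours for treatment groups. Classes A and C do not overlap in any panel, and class B lies between their medians.

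Gm11127, an unnamed protein-coding gene model in the distal class I cluster (chr17:36055816-36058371, minus strand), was at 1.61 CPM in Vec replicate 2, 0.268 in Vec+BBR replicate 4, 0.0942 in Vec+BBR replicate 5 and 0.274 in shRNA replicate 1. Class B ran from 2.46 to 8.14 CPM and class C from 6.44 to 17.7 CPM. Class A lay below all of class B and class C (log2 fold change -4.19, SE 0.42, edgeR adjusted p = 2.28e-05). Without Vec replicate 2, the highest of class A, the log2 fold change was -5.21.

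Apom, a lipoprotein-associated protein made by the liver (chr17:35128997-35132050, minus strand), was the smallest of the called differences. It was at 55.8 CPM in Vec replicate 2, 33.3 in Vec+BBR replicate 4, 30.2 in Vec+BBR replicate 5 and 61.6 in shRNA replicate 1. Class C ran from 14.5 to 39.9 CPM and overlapped class A when all treatment groups were pooled. Within treatment groups it did not: 55.8 against 27.0 to 36.2 CPM in Vec, 30.2 to 33.3 against 18.2 CPM in Vec+BBR, and 61.6 against 39.3 to 39.9 CPM in shRNA. The log2 fold change was 0.85 (SE 0.15, edgeR adjusted p = 0.0431), and the call was lost in 14 of 20 fits that left out 1 library.

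The other 5 called genes did not overlap between class A and class C over all libraries, as for 48 of 12339 tested genes (0.389%). Their separation within each of the 3 treatment groups that held both classes follows from this and adds no support. shRNA+BBR held no class A library. In a two-sided exact permutation test of normalized CPM over the 4 and 8 libraries, which ignores treatment group and has a smallest possible p of 0.00202 over 495 assignments, H2-K1 and Gm11127 gave p = 0.00202 (adjusted 0.00375 over the 13 genes so tested), H2-Ea and Cd8a gave p = 0.00404, H2-DMb2 p = 0.00606 and Apom p = 0.0343. These genes were picked by their model p, so the test is not independent of that choice.

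**Figure D3:**
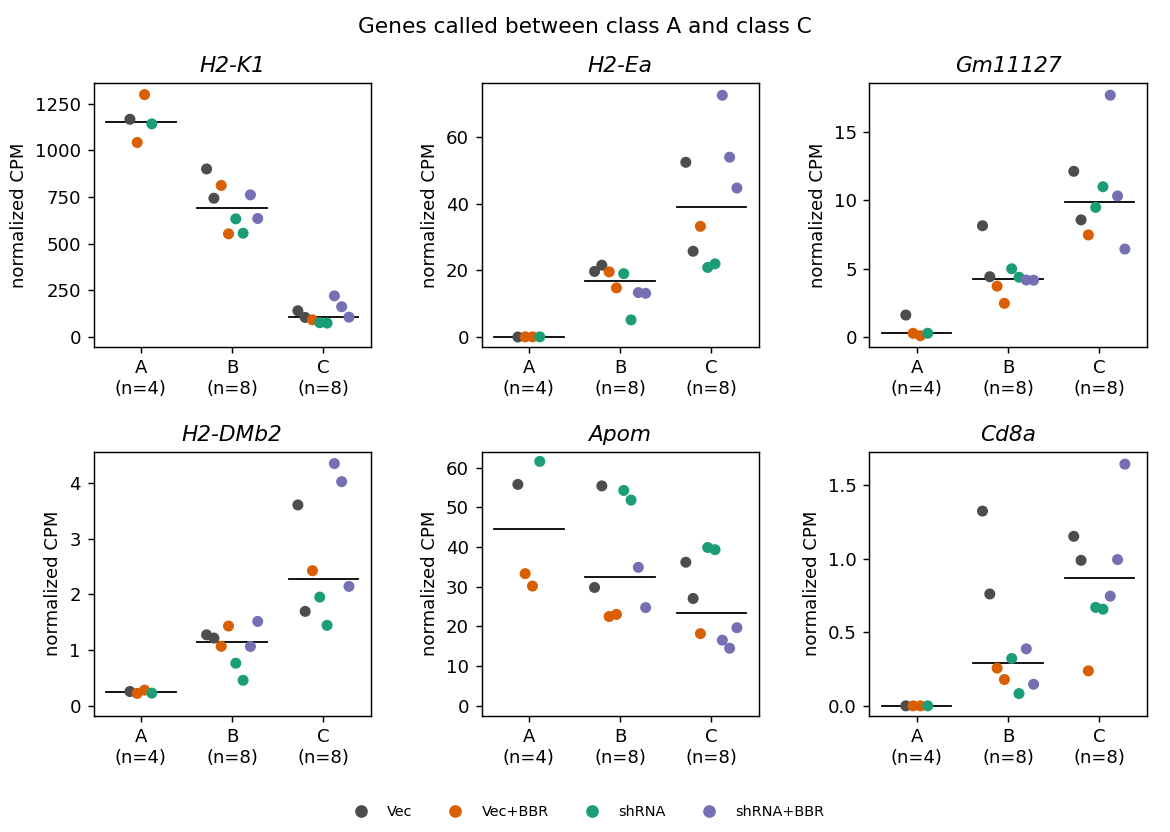
Normalized CPM of the 6 genes called between class A and class C, 1 point per library, coloured by treatment group, with class medians as lines. Class A is above class C for H2-K1, below it for H2-Ea, Gm11127, H2-DMb2 and Cd8a, and overlaps it for Apom.

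Class B lay between class A and class C for all 6 called genes by the model coefficients, against 37.1% of all tested genes. The called genes were picked for their difference between class A and class C, which widens the interval, so these shares are not alike. On the linear CPM scale, with class C at 0% and class A at 100%, the mean of class B stood at 55.5% for H2-K1, 61.3% for H2-Ea, 59.4% for Gm11127, 65.3% for H2-DMb2, 56.6% for Apom and 51.2% for Cd8a. On the log2 scale class B was nearer to class C for the genes that fell, for example -1.26 of -9.71 for H2-Ea, a value that depends on the near-zero counts of class A.

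Calls were then counted by distance from Rps18. Among 65 tested genes with a start within 1 Mb of the Rps18 start, 3 were called (4.62%), and among 75 genes from 1 to 2.5 Mb, 2 were called (2.67%). None of 30 genes from 2.5 to 5 Mb, 120 from 5 to 10 Mb, 117 from 10 to 20 Mb or 204 farther on chromosome 17 passed edgeR's adjusted threshold. At an unadjusted p under 0.05 these 4 bins held 6, 6, 5 and 7 genes. Among them limma-voom called 0 and DESeq2 called 1, Abcg1. On the other chromosomes edgeR called 1 of 11723, limma-voom called 3 (Cd8a, Trac and Gzmk) and DESeq2 called 12, among them these 3. The other DESeq2 calls there were Ccl6, Cd300ld, Ighg2b, Nrp1, Spn, Sult2a1, Sult2a2, Sult2a6 and Syk. With only class A and class C libraries, edgeR also called Sult2a1 and Sult2a2. In the 2 nearest bins 14 of 65 and 15 of 75 genes had an unadjusted p under 0.05, or 21.54% of the first. The share was similar from 2.5 to 5 Mb (6 of 30), so it did not drop at 2.5 Mb, where the edgeR calls ended. It was lower from 5 to 10 Mb (6 of 120), and on other chromosomes it was 3.64%. All 5 calls lay on the side of Rps18 that holds H2, where 90 genes were tested within 2.5 Mb and 22 had an unadjusted p under 0.05. None of 50 on the other side was called, and DESeq2 and limma-voom each called 0 there. On that side 7 of the 50 had an unadjusted p under 0.05, a share also above the 3.64% on other chromosomes. Libraries of class A and class C did not overlap for 48 genes (0.389% of those tested), of which 10 lay in those 90.

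**Figure D4:**
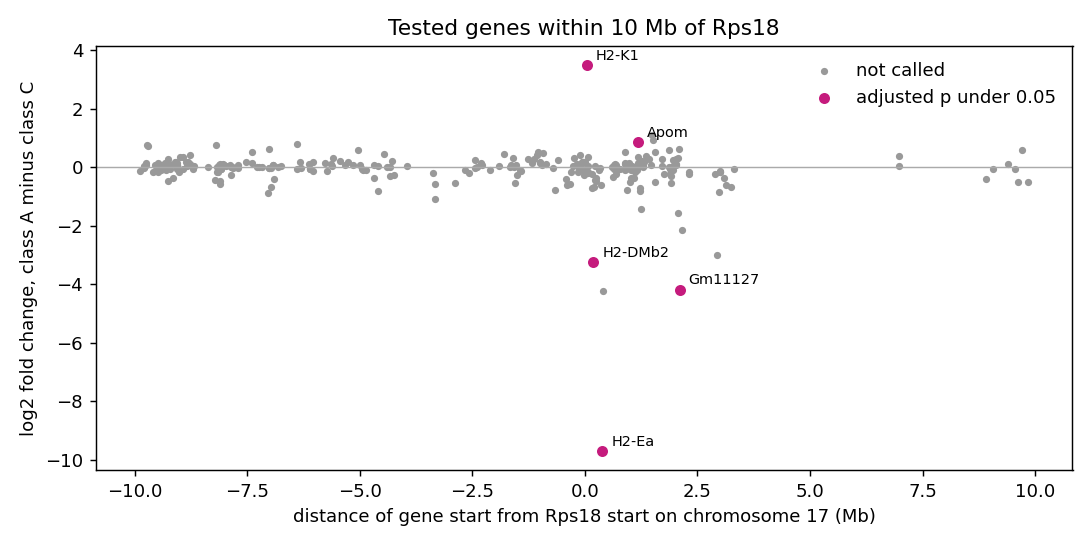
Log2 fold change of class A minus class C for tested genes within 10 Mb of Rps18, against the distance of their start from the Rps18 start in Mb, with called genes labelled. The 5 called genes lie between 0 and 2.5 Mb on the side that holds H2.

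Within the class I list, 1 of 13 tested members was called by edgeR, 1 by limma-voom and 5 by DESeq2, which added H2-Q10, H2-T10, H2-T22 and H2-T24 to H2-K1. H2-Q10, a class I gene secreted by the liver, missed the threshold in edgeR. It was 1404, 3033, 2881 and 1600 CPM in the class A libraries in the order above and 704 to 1283 CPM in class C, without overlap (log2 fold change 0.93, SE 0.19, edgeR adjusted p = 0.098). H2-T10 stood at 0.625 to 3.98 CPM in class A and 5.61 to 13.6 CPM in class C (log2 fold change -2.14, adjusted p = 0.0672). H2-T24 had a log2 fold change of -1.58 and H2-T22 one of 0.63 (adjusted p = 0.226 and 0.234). Without H2-K1 and H2-Q10, the summed class I heavy chains, Gm11127 included, were at 774 to 999 CPM in class A and 619 to 1246 CPM in class C. The median log2 fold change of the list was 0.29, against 0.01 over all tested genes.

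Of the 9 tested class II genes and chaperones, 2 were called lower, and all 9 had a log2 fold change below 0 (median -0.73). They include Cd74, the invariant chain, at -1.23 (adjusted p = 0.415), and Ciita, the regulator of class II transcription, at -1.20 (adjusted p = 0.912). In the class III region none of 4 tested complement and steroid genes was called or had an unadjusted p under 0.05. C4b was 879 to 1232 CPM in class A and 854 to 1287 CPM in class C. Of 33 other class III genes tested, Apom was called by all 3 tools. Nelfe, a subunit of a complex that pauses RNA polymerase, had a log2 fold change of 0.50 (adjusted p = 0.162) and was called by DESeq2 but not by edgeR or limma-voom. None of 18 extended class II genes, 26 extended class I genes or 14 genes that supply peptides to class I was called, with 2, 3 and 1 at an unadjusted p under 0.05. DESeq2 and limma-voom called 0 in these 3 lists and among the complement and steroid genes.

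Reads shared with similar genes limit several of these values. Over 50-base windows of the reference transcripts, 63.8% of Gm11127, 32.9% of H2-T10, 24.8% of H2-DMb2, 19.0% of H2-Q10 and 9.6% of H2-K1 were also present in another gene, and their estimated counts were not whole in most libraries. H2-Ea, Apom and Cd8a shared no such window and had whole counts in all 20 libraries. For the genes that set the classes, the shared part was 19.0% of Rps18, 63.3% of Rps18-ps6 and 69.7% of Rps18-ps5. Rps18 shared most with Gm11361 (13.0%), which is not in the ratio. The effect of an allele that differs from the reference on read assignment was not tested.

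Cd8a, a chain of the CD8 co-receptor of cytotoxic T cells (chr6:71373427-71379173, plus strand), was the called gene outside chromosome 17. It had 0 counts in all 4 class A libraries, 0.0833 to 1.32 CPM in class B and 0.238 to 1.64 CPM in class C (edgeR adjusted p = 0.0255). Against a floor of 3 counts per library, class C was at least 5.99-fold higher. The call was lost in 5 of 20 fits that left out 1 library.

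Other T cell genes did not pass the edgeR test. Trac, the constant part of the T cell receptor alpha chain, had 3 counts in all of class A, in Vec+BBR replicate 5, against 156 in class C (adjusted p = 0.0813). Gzmk, a granzyme of cytotoxic T cells, had 0 counts in class A and 83 in class C (adjusted p = 0.098). DESeq2 and limma-voom called both Trac and Gzmk. Without Vec+BBR replicate 5, edgeR called Trac as well. Of 8 T cell markers tested, a list that holds Trac but not Gzmk, 1 was called by edgeR and 2 by each of DESeq2 and limma-voom. An unadjusted edgeR p under 0.05 was reached by 7 (3.89% of all tested genes). Class A and class C did not overlap for 6 (0.389% of all tested genes). All 8 had a log2 fold change below 0. Their median was -1.83, which was the same with Cd8a and Trac set at the floor of 3 counts per library. The summed level of the 10 listed T cell markers was 1.05 to 1.60 CPM in class A, 1.83 to 8.43 in class B and 2.81 to 9.87 in class C.

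None of 12 tested macrophage and dendritic cell genes was called (smallest adjusted p = 0.376). All 12 had a log2 fold change below 0 (median -0.60), and 10 had an unadjusted p under 0.05. Clec4f, a Kupffer cell lectin, was 37.2 to 51.3 CPM in class A and 43.6 to 74.9 CPM in class C (adjusted p = 0.459). Marco, a scavenger receptor, was 0.580 to 2.44 CPM in class A and 3.38 to 26.9 CPM in class C (adjusted p = 0.376). Summed, the 15 listed macrophage and dendritic cell genes were at 171 to 317 CPM in class A and 274 to 420 CPM in class C. None of 5 tested B cell markers was called (median log2 fold change -0.74, 1 with an unadjusted p under 0.05), with summed levels of 1.67 to 5.46 CPM in class A and 4.69 to 172 CPM in class C. None of 29 tested interferon response genes was called (median -0.28, 4 with an unadjusted p under 0.05, summed level 282 to 517 CPM in class A and 356 to 928 CPM in class C). In these 3 lists edgeR, DESeq2 and limma-voom each called 0 genes. DESeq2 did call the immune genes Ccl6, Cd300ld, Ighg2b and Syk, which are in none of the 3 lists. The part of these cell markers in the class II differences was not tested. The ratio of H2-Ea to H2-Eb1 given above is a description with no test.

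**Figure D5:**
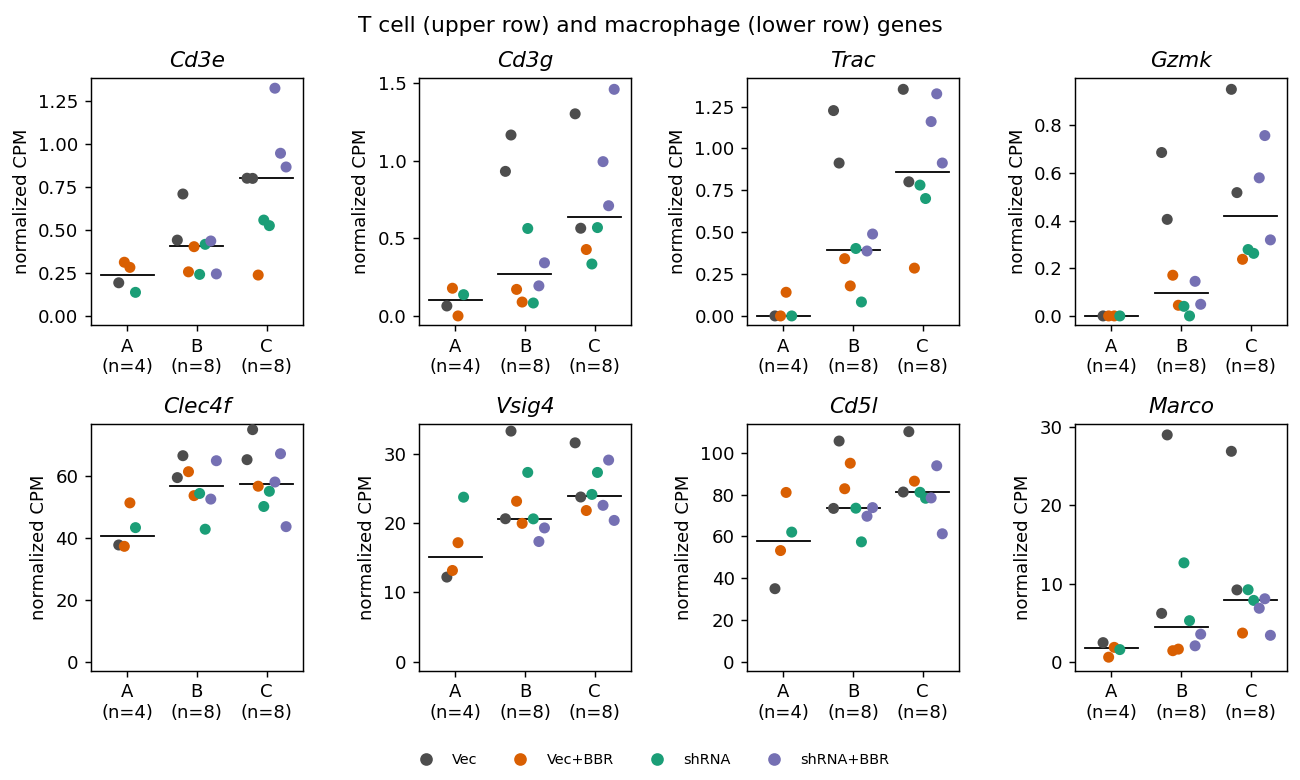
Normalized CPM of 4 T cell genes (Cd3e, Cd3g, Trac, Gzmk) and 4 macrophage genes (Clec4f, Vsig4, Cd5l, Marco) by class, 1 point per library, with class medians as lines. Gzmk had 0 counts in every class A library, and the macrophage genes overlapped between class A and class C except Marco.

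The genes that the study's treatments target were compared in the same way. None of 21 tested PPARγ target genes of fatty liver was called, 1 had an unadjusted p under 0.05, and their median log2 fold change was -0.01. None of 10 liver identity genes was called or had an unadjusted p under 0.05 (median 0.07). DESeq2 and limma-voom called 0 in both lists. Pparg itself ranged over 7.31 to 38.3 CPM in class A and 3.24 to 32.1 CPM in class C.

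Treatment comparisons were refitted with class in the model. Vec+BBR differed from Vec at 1799 genes (14.6% of those tested), shRNA from Vec at 1483 (12.0%), shRNA+BBR from Vec+BBR at 507 (4.11%) and shRNA+BBR from shRNA at 1231 (9.98%). With treatment group alone the counts were 1908, 1628, 1004 and 1932, of which 1676, 1444, 491 and 1218 were called in both models. The comparisons involving shRNA+BBR, the group with no class A library, had the largest drop in number.

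As a description over all 20 libraries, with no test, the tested genes whose log2 CPM followed the Rps18 share most closely were H2-K1 (Pearson r = 0.92), Nelfe (0.77), Abcf1 (0.73), H2-Q10 (0.67) and Slc39a7 (0.66). Those with the most negative correlation were Gm11127 (-0.91), H2-Ea (-0.90), H2-DMb2 (-0.90), Trac (-0.78) and Cd8a (-0.78). The libraries fell into 3 clusters on the share, so r describes the class differences again. Of these 10 genes, all but Trac and Cd8a lie on chromosome 17. Over 50-base windows of the reference transcripts, 74.5% of Slc39a7 was also present in another gene.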

How the data were processed

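Liver RNA was enriched with oligo(dT), made into NEBNext Ultra libraries and sequenced on an Illumina NovaSeq. The deposited tables hold an estimated count per gene and library, as the authors made it and not always whole, and the authors' FPKM, scaled to gene length and library size. The submitters' processing notes name build mm10. The aligner, counter and annotation are not given in the sources used here. Counts were rounded. Of 22298 genes, 22255 were matched by identifier to GENCODE M21 (GRCm38) for coordinates. FPKM values were not tested.

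Classes came from the Rps18 share of deposited counts. The members, gene lists and tests were chosen with earlier results of these data known. Counts were fitted in edgeR 4.0.16 (R 4.3.3) with TMM scaling (factors 0.873 to 1.14), filterByExpr by treatment group, and a quasi-likelihood model of class plus treatment group. SE was derived from the test statistic. Benjamini-Hochberg adjustment ran over 12339 genes, with the 3 Rps18 genes left out, at 0.05. DESeq2 1.42.0 and limma 3.58.1 were alternatives, and the fit was tested on simulated data. Levels are TMM-normalized CPM. Correlations used log2 of CPM plus 0.5. A floor of 3 counts per library corresponds to 0.12 to 0.172 CPM. Intervals and floors cover counting error only. The labels do not say that each library is a separate mouse, so p-values measure only the spread between these libraries, which may be technical in part.

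Genes were named by rule: the Rps18 genes; up to 10 increases and 10 decreases among called genes without overlap of class A and class C and with a mean count of at least 50; the 10 smallest adjusted p; called genes outside chromosome 17; called list members; and the 5 highest and 5 lowest correlations with the share. List members given as examples beside these were chosen after their values were seen. H2-Ke6 was moved between lists after the tables were read.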

Additional observations from a re-analysis of the deposited data

Results flagged for a closer look

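Of 28 gene and class combinations examined with Dixon's test, 5 had a library far from the rest of its class. The rate of about 1 in 20 that chance gives assumes continuous values. It does not hold for H2-Ea and Trac in class A, which had few or no counts, so no conclusion is drawn from the number. In class A, Vec replicate 2 had the highest Gm11127 (1.61 CPM, next 0.274) and the highest H2-T10 (3.98 CPM, next 1.18), and the lowest H2-Ea (0.0 CPM, next 0.0446, a difference of 1 count). Vec+BBR replicate 5 held all the Trac counts of class A (0.141 CPM, the others 0.0). In class B, Vec replicate 3 had the highest Gm11127 (8.14 CPM, next 4.99). These libraries stayed in every comparison. Without Vec replicate 2, H2-T10 passed the threshold and Cd8a and Apom did not.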

How the results depend on the processing

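H2-K1, H2-Ea, Gm11127 and H2-DMb2 were called under every alternative that tested them. A minimum of 10 counts in every library left 1 call, H2-K1 on chromosome 17 (1), with the other 3 and Cd8a filtered out and Apom tested but not called. The number of calls was 23 with the DESeq2 Wald test (11 on chromosome 17), 10 without a filter on low counts and 10 with only class A and class C libraries. Leaving out 1 library gave 4 to 8 calls, 4 to 7 of them on chromosome 17. Over 13 named genes and 384 values, no direction turned, 23 values lost the call and 18 gained it. Apom was called in 13 of 30 alternatives (adjusted p up to 1.0) and Cd8a in 23 of 29 (up to 0.199). Cd8a lost the call without Vec replicate 2, Vec+BBR replicate 4 or shRNA replicates 1, 2 or 4, and with the share as a number. H2-T10 gained it without Vec replicate 2 or Vec+BBR replicate 2, Trac without Vec+BBR replicate 5 and H2-Q10 without shRNA+BBR replicate 5. Apom kept it only without Vec replicates 1, 3 or 4 or shRNA+BBR replicates 1, 3 or 5, among the fits that left out a library. At adjusted p under 0.01, 1 gene from 1 to 2.5 Mb was called. Keeping the Rps18 genes in the adjustment, chosen after seeing the data, gave 7 calls, with H2-T10 added. Without a class term the treatment counts were 1004 for shRNA+BBR against Vec+BBR and 1932 for shRNA+BBR against shRNA; the cause was not tested.

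With a replicate block the class comparison had 6 calls, 5 of them shared; Apom was lost. Pairing of same-numbered libraries was described but not tested. Of 5 numbers, at most 3 in any pair of groups had a correlation of deviations over 0.1 (range -0.339 to 0.332). The pair with 3 was shRNA and shRNA+BBR. The wider cutoffs gave the same class to all 20 libraries. Depth limits the T cell genes, most under 1 CPM, and class A has 4 libraries.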
